A study of Homo sapiens with 9 samples.

Results

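MOLM13 is an established human acute myeloid leukemia line that grows in suspension and carries a fusion of KMT2A with MLLT3 and an internal duplication in FLT3. The measurements described here are the polyadenylated RNA of its 3 control libraries, chosen as the control shRNA columns of the deposited count table, out of 9 libraries in the series. The other 6 libraries received 1 of 2 hairpins against YTHDC1, a nuclear reader of N6-methyladenosine in RNA, and entered nothing here except the choice of which transcript row stood for a gene. The control cells were not untouched: they had been transduced with a virus that expressed a control hairpin, spun with polybrene at 10 ug/ml for 1 h, incubated for 48 h and kept for 48 h in puromycin at 3 ug/ml. RNA came from frozen cells that were grown in medium with 10% serum, and 1 ug entered a stranded messenger RNA kit. The 3 libraries are numbered, with no word in the labels on separate cultures, so the spread between them may be technical. No contrast between conditions is drawn, and levels are described with no test.

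KMT2A is a histone methyltransferase that keeps developmental genes of the HOX family active, and its leukemia fusions join its DNA-binding end to proteins of the machinery that releases paused RNA polymerase. Blood progenitors with such a fusion are known to keep late HOXA genes, MEIS1 and related genes active while their maturation is blocked at a monoblast-like stage. FLT3 is a receptor tyrosine kinase of progenitors, and its internal duplications make it signal without ligand. The counts do not show which allele of a gene a read came from, so neither the fusion nor the duplication could be read from them.

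Levels are given in 2 ways. CPM is a gene's count in every 1000000 counts of its library and was used for the values of each gene. TPM is the count per base of transcript, scaled to sum to 1000000 over the protein-coding genes of every library, and was used for ratios and ranks between genes; CPM of different genes in 1 sentence are not corrected for length. A gene was called detected when it reached 1 CPM in each of the 3 libraries. The libraries held 67124014, 65588658 and 66839132 counts, so a gene with 0 counts could still have had up to 0.0447, 0.0457 and 0.0449 CPM, the value of 3 counts in each library; with the 3 libraries pooled the limit is 0.0150 CPM. These limits cover counting error only. Unless 3 values are printed, a value is the mean ± SD of the 3 libraries.

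YTHDC1 itself, the gene that the other groups target, stood at 125, 134 and 122 CPM in the control libraries, a narrow range. Of 25679 genes, 12863 were detected, a share of 50.1%. Most lists below hold protein-coding genes, for which the share of 59.8% is the nearer background. The 11333 detected protein-coding genes were 59.8% of the 18958 measured and held 88.9% of the counts. Long noncoding RNAs were detected less often, 755 of 3315, or 22.8%. A total of 3467 genes had no count in any of the 3 libraries, 1734 of them protein-coding. The median level of the detected protein-coding genes was 18.2 TPM, and that of all 18958 was 4.33 TPM. At the threshold the call separated near-equal values: NPR3 passed with 1.04, 1.08 and 1 CPM, and KRBA1 did not with 0.998, 1.2 and 1.45 CPM.

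A small number of genes carried much of the RNA. The 424 highest genes held 50% of the counts and the 10 highest held 15.4%. The highest row by mean CPM was the ribosomal RNA precursor RNA45S5, at 30387, 52474 and 55707 CPM, lowest in replicate 1 by a wide margin. EEF1A1, which delivers aminoacyl-tRNA to the ribosome, followed at 46589, 43338 and 41530 CPM and was the highest row in replicate 1. RPPH1 and RMRP, the RNA parts of RNase P and RNase MRP, stood at 9624 ± 1814 CPM and 4828 ± 516 CPM. Neither of these RNAs carries a poly(A) tail, and the share of untailed RNA that came through the selection was not measured. Genes of ribosomes and translation made up most of the other leading rows, among them EEF2 (5528 ± 617 CPM), RPLP0 (4770.3 ± 92 CPM) and TPT1 (4179 ± 419 CPM).

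A stretch of chromosome 6 stood apart in a way that affects several genes named below. The 113 detected protein-coding genes from GABBR1 to KIFC1, which span the major histocompatibility complex (MHC), had a median of 117 TPM, against 25.2 TPM for 524 detected genes on the rest of chromosome 6 and 17.99 TPM for 11203 detected genes elsewhere, the rest of chromosome 6 included. The bounds were chosen after the values were seen. RPS18, a protein of the small ribosomal subunit encoded there, had 70652 ± 2514 TPM, 20.6 times the median of the other 41 detected ribosomal protein genes listed. TUBB, a beta-tubulin from the same stretch, had 4.52 times the TPM of its partner TUBA1B. The build named in the submitters' notes, hg19, holds alternate copies of this region, and the sources used here do not give the rule by which a read that matches more than 1 place was counted; the part of this in the levels was not tested. Levels of HLA genes, TAP1, TAP2, TAPBP, PSMB8, PSMB9, TNF, BRD2, PBX2, TNXB, CLIC1, TUBB and RPS18 are therefore uncertain. They are not set against other genes.

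Some transcription factors of the progenitor-to-monocyte path were high, although the 19 detected of the myeloid list had a median of 13.4 TPM, below the 18.2 TPM of all detected protein-coding genes. MYB, which keeps myeloid progenitors dividing, stood at 513, 488 and 467 CPM. IRF8, which directs progenitors toward monocytes and dendritic cells, stood at 321, 349.7 and 379.7 CPM. ZEB2, a repressor needed in monocyte and dendritic precursors, stood at 433, 454 and 399 CPM. In all 3 genes the SD was less than 10% of the mean. CEBPA, the factor that commits progenitors to the myeloid path, had 202 ± 20.6 CPM, and GFI1, which favours the granulocytic branch, had 120.3 ± 3.63 CPM. SPI1, the PU.1 factor of all myeloid cells, was lower, at 37.5 ± 4.51 CPM. In TPM the order was MYB (277 TPM), IRF8 (241 TPM), CEBPA (160 TPM), ZEB2 (93.5 TPM), GFI1 (89.95 TPM) and SPI1 (67 TPM), but IRF8 and ZEB2 move to 452 TPM and 149 TPM with the median length of their transcripts, and ZEB2 and GFI1 do not differ beyond their spread.

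Of 22 myeloid factors listed, 19 were detected, a share of 86.4% against 59.8% of protein-coding genes and 50.1% of all genes. Among those that were not are PPARG, a macrophage lipid factor (0.14 CPM), and CEBPE, which drives late granulocyte genes (0.1 CPM). The detected factors of later maturation were low: CEBPB had 7.7 ± 1.38 CPM, CEBPD 8.98 ± 1.17 CPM, KLF4 9.03 ± 0.693 CPM and NR4A1 2.72 ± 0.536 CPM. Of 21 stem and progenitor factors, 15 were detected, among them MYB, IKZF1 (219 ± 9.96 CPM), RUNX1 (148 ± 11.6 CPM) and FLI1 (124 ± 2.77 CPM). LMO2, a bridging protein of the stem cell factor complex, had 68.9 ± 6.86 CPM, whereas its partner TAL1 had 0.0403 CPM. GATA2 was just detected at 1.43, 1.24 and 2.12 CPM, higher in replicate 3 than in replicate 1. ERG, HLF and MECOM, factors of stem cells, were under detection at 0.0249 CPM, 0.00508 CPM and 0.11 CPM, and MYCN had no count.

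Of 14 lymphoid factors only 4 were detected: PAX5, TCF7, PRDM1 and SPIB. PAX5, the factor that commits cells to the B lineage, stood out with 32.8, 36.6 and 39.1 CPM. B cell genes that PAX5 is known to activate were not high beside it: CD79A was under detection at 0.566, 0.305 and 0.419 CPM, and BLNK had 2.38, 1.72 and 1.9 CPM. EBF1, which acts with PAX5 in B cells, had 0.161 CPM. The row chosen for PAX5 is long, and its level per base was 8.76 TPM, or 61.7 TPM with the median transcript length.

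**Figure D1:**
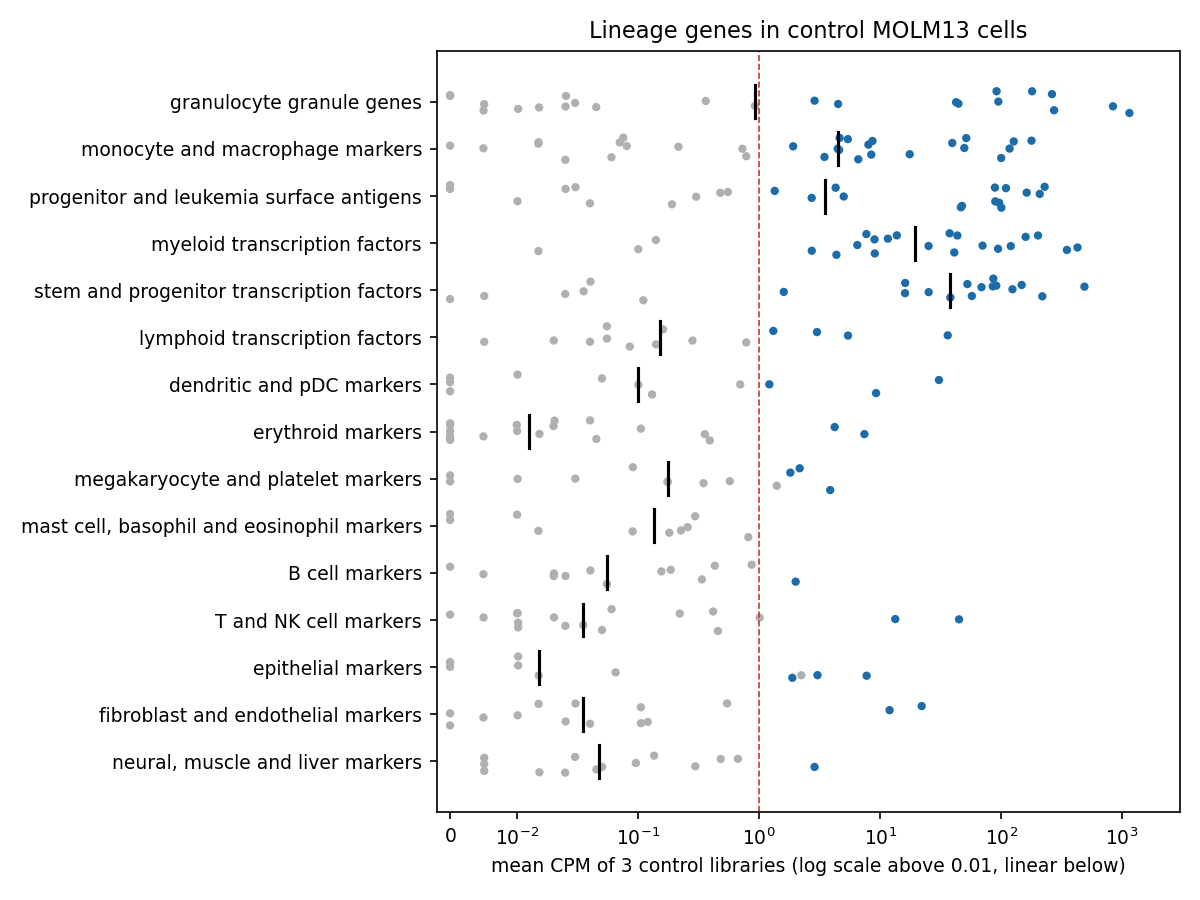
Mean CPM of the 3 control libraries (x axis, log scale above 0.01 CPM and linear below) for the genes of 15 lists (rows). Each point is a gene, blue where detected and grey where not, the black bar is the list's median, and the dashed line marks 1 CPM; myeloid and progenitor factors lie mostly right of the line, and erythroid, lymphoid and non-blood lists mostly left of it.

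In the HOX family 1 cluster was on and the others were off or low. In the HOXA cluster 10 of 11 genes were detected. HOXA9, the HOX gene most closely tied to KMT2A leukemia, stood at 66.9, 66 and 67.8 CPM, with a spread of 1.31% of its mean. HOXA10 stood at 53.9, 54.1 and 56.4 CPM, and the last genes of the cluster were on as well, with 23.4, 23 and 25.3 CPM for HOXA11 and 44.8, 41.2 and 42.7 CPM for HOXA13. HOXA9 had 1.51 ± 0.0237 times the TPM of HOXA10 within the libraries. The first genes of the cluster were lower: HOXA7 had 3.58 ± 0.642 CPM, HOXA5 7.79 ± 1.2 CPM and HOXA3 1.94 ± 0.642 CPM, and HOXA2, at 0.551, 0.823 and 0.913 CPM, did not reach 1 CPM in any library. HOXA9 had 18.8 ± 3.70 times the TPM of HOXA7, or 26.4 times with median transcript lengths.

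None of the 10 HOXB genes was detected, and HOXB9 was the highest of them at 0.268, 0.9 and 0.643 CPM, with HOXB1, HOXB2 and HOXB5 at no count. None of the 9 HOXD genes was detected, 5 of them with no count, and the highest, HOXD13, had 0.0352 CPM. The HOXC cluster was between these states, with 3 of 9 detected: HOXC4 at 8.82, 9.73 and 10.5 CPM, HOXC10 at 4.71, 5.03 and 4.94 CPM and HOXC6 at 3.5, 3.45 and 4.58 CPM. HOXC5, HOXC8 and HOXC9 lay near the threshold, and HOXC11, HOXC12 and HOXC13 had no count. Of the noncoding RNAs of these clusters, HOTTIP, from the late end of HOXA, had 7.25 ± 0.804 CPM, HOTAIRM1, from its early end, had 1.17 ± 0.0608 CPM, and HOTAIR, from HOXC, had 0.0201 CPM. Thus 13 of the 39 HOX genes, or 33.3%, were detected, below the share over all genes.

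**Figure D2:**
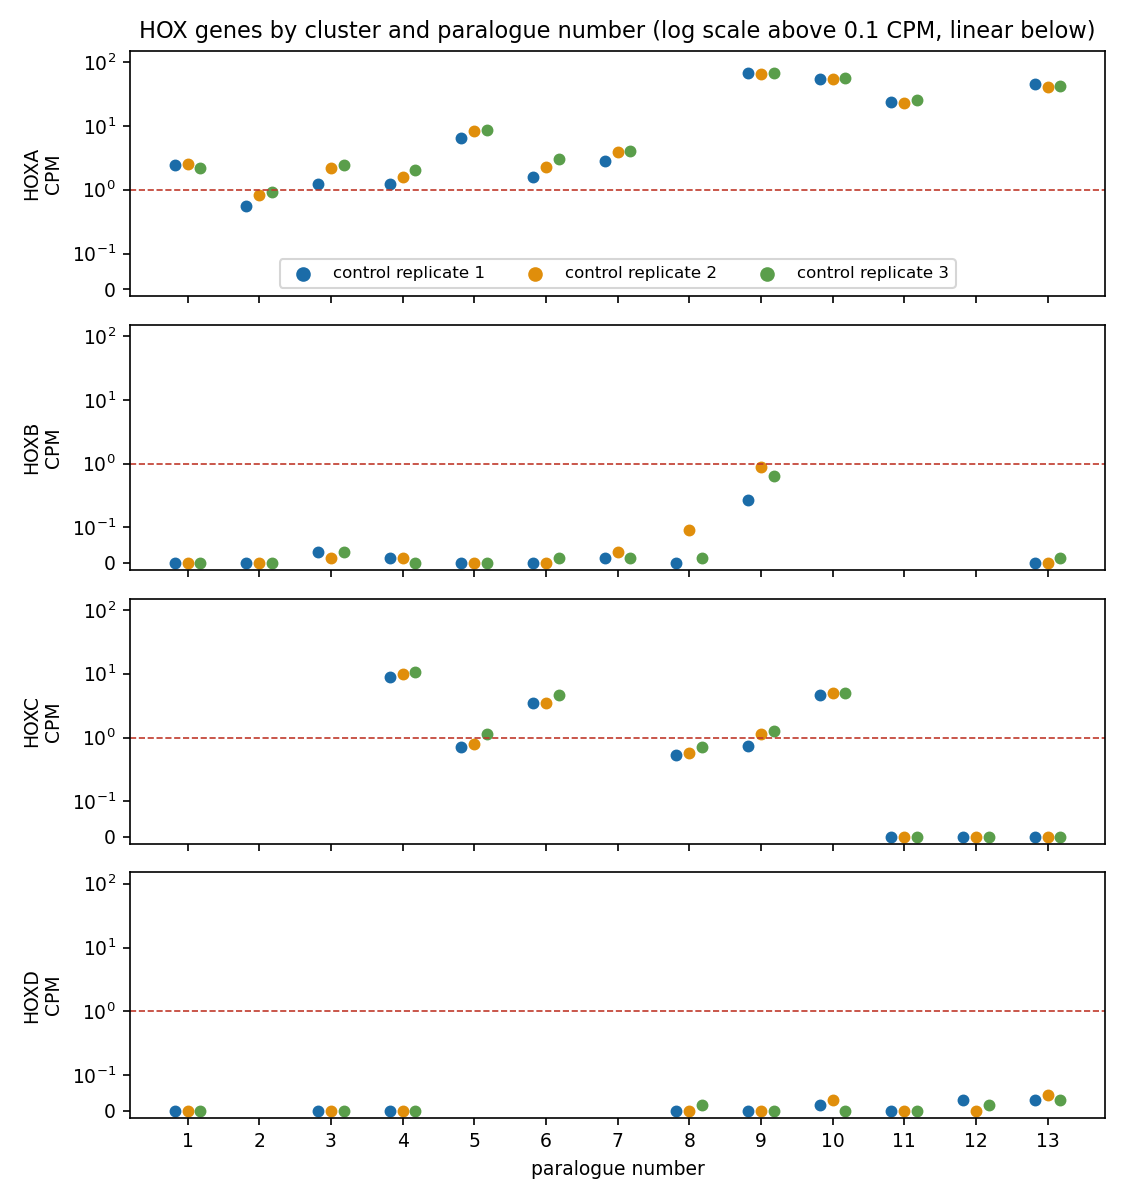
CPM (y axis, log scale above 0.1 CPM and linear below) of each HOX gene in each of the 3 control libraries (colours), by paralogue number (x axis), with a panel for each cluster and a dashed line at 1 CPM. HOXA9, HOXA10, HOXA11 and HOXA13 lie above 20 CPM in each library, and no HOXB or HOXD gene reaches 1 CPM in all 3.

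Of 26 fusion targets and cofactors listed, 25 were detected, 96.2% against 59.8% of protein-coding genes. The list holds targets and cofactors together, so the count does not describe the targets alone. MEIS1, the HOX partner that works with HOXA9, stood at 51.4, 62.5 and 58 CPM. PBX3, its other partner in this leukemia, stood at 93.8, 104 and 96 CPM. FLT3 stood at 560.4, 611 and 623 CPM, lowest in replicate 1. Per base, FLT3 had 324 ± 24.9 TPM, rank 324 of 11316 detected protein-coding genes, and HOXA9 had 67.6 ± 1.85 TPM, rank 1775. MEF2C, a factor of myeloid progenitors, had 241 ± 18.9 CPM; CDK6, the G1 kinase that fusion-driven cells rely on, had 782 ± 40.2 CPM; and JMJD1C, a chromatin cofactor of this program, had 758 ± 36.4 CPM. LAMP5, a membrane protein used as a marker of KMT2A-rearranged leukemia, had 72.8 ± 6.56 CPM, and HMGA2, a fetal chromatin protein, had 29.2 ± 1.98 CPM.

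The proteins that KMT2A fusions recruit were detected at moderate levels. DOT1L, the histone H3 lysine 79 methyltransferase, stood at 38.4, 49.6 and 62.7 CPM, lowest in replicate 1 and highest in replicate 3. MEN1, the menin that tethers KMT2A to chromatin, had 10.9 ± 1.36 CPM, and PSIP1, its partner LEDGF, had 118 ± 10.2 CPM. AFF1 had 274 ± 9.01 CPM and AFF4 69.1 ± 1.72 CPM, both of the elongation complex, and CDK9, the kinase of that complex, had 20.3 ± 2.35 CPM. KMT2A had 105, 102 and 111 CPM and MLLT3 23.8, 25 and 24.4 CPM; a fusion transcript gives reads to both genes, so these values hold normal and fused copies together.

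FLT3 and KIT are related receptors of blood progenitors with opposite levels here. KIT, the stem cell factor receptor, had 0.0596, 0.0152 and 0.0449 CPM, against the FLT3 values above. Their promoters are shown because they are alike in CpG content although FLT3 was abundant and KIT near 0; FLT3 holds 34 CpG dinucleotides in 300 bases and KIT holds 38. The windows run from 250 bases before to 50 bases after the start site in RefSeq (GRCh38.p14), chr13:28100527-28100826 on the minus strand and chr4:54657707-54658006 on the plus strand, with each CpG in capitals.
FLT3: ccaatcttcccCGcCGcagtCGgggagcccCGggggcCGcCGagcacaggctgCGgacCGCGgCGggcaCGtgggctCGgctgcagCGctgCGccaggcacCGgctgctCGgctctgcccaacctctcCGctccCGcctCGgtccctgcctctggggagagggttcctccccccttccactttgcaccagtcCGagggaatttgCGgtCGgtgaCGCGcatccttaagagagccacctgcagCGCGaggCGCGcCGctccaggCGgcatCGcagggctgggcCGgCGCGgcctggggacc
KIT: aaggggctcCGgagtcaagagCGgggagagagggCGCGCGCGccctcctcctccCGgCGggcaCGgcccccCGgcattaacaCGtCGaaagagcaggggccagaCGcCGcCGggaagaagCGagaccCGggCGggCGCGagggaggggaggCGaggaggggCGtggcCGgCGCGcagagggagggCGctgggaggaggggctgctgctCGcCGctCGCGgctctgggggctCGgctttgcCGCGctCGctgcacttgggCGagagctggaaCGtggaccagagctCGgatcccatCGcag

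Of 24 surface antigens of progenitors and leukemia, 14 were detected, 58.3%, near the 59.8% of protein-coding genes. Their levels differed widely. CD34 and CD7, of early progenitors, had no count in any of the 3 libraries. CD33, the sialic acid receptor of myeloid blasts, stood at 45.4, 49 and 48.1 CPM. IL3RA, the alpha chain of the interleukin 3 receptor known as CD123, stood at 84.6, 86.3 and 95.8 CPM. Both antigens were steady over the libraries. LAIR1, an inhibitory collagen receptor, had 209 ± 24.4 CPM, SPN, the sialomucin CD43, had 229 ± 4.28 CPM, and CD44, a hyaluronan receptor, had 163 ± 12.4 CPM. IL1RAP, a co-receptor of interleukin 1, had 96.4 ± 4.29 CPM; CD70, a TNF-family ligand, had 46.5 ± 4.78 CPM, with its receptor CD27 under detection at 0.551 CPM. CD47, which restrains phagocytosis, had 101 ± 2.45 CPM, and CD93, a receptor of monocytes and of some leukemia stem cells, had 109.7 ± 9.38 CPM. Low or absent were CD38 (4.29 ± 0.294 CPM), CLEC12A (1.35 ± 0.444 CPM), HAVCR2 (0.477 CPM), PROM1 (0.0303 CPM), THY1 (0.301 CPM) and CD96 (0.01 CPM).

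The genes of azurophil granules, the enzyme stores that promyelocytes and monoblasts build, were among the most abundant cell type markers. CTSG, the protease cathepsin G, stood at 884, 834 and 807 CPM. SRGN, the proteoglycan that packs granule proteins, stood at 1438, 1000.2 and 1014 CPM, higher in replicate 1 than in the other libraries. In TPM, SRGN and CTSG ranked 84 and 85 among the 11316 detected protein-coding genes. PRTN3 and ELANE, the related serine proteases proteinase 3 and neutrophil elastase, had 229.8, 284 and 309 CPM and 71.1, 100.1 and 104 CPM, in each case lowest in replicate 1. AZU1, their inactive relative azurocidin, had 138, 171 and 232 CPM, again lowest in replicate 1. MPO, the myeloperoxidase that names the granules, stood at 122, 64 and 99 CPM, lowest in replicate 2. CTSG had 9.87 ± 2.65 times the TPM of ELANE and 34.4 ± 11.3 times that of MPO.

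RNASE2, the eosinophil-derived neurotoxin that monocytic cells also make, had 263 ± 46.6 CPM, while RNASE3 had 4.49 ± 0.391 CPM. The genes of later granules were off: LTF, CAMP, LCN2 and MMP8 had 0.0301 CPM, 0.00499 CPM, 0.00508 CPM and 0.0102 CPM, each under the limit of 3 counts a library, and MMP9 had 0.0152 CPM. DEFA3, an alpha-defensin, and CLC, the Charcot-Leyden crystal protein, had no count. In all, 11 of 23 granule genes were detected, 47.8%, near the 50.1% of all genes and below the 59.8% of protein-coding genes. Their summed levels were 2794 to 3285 CPM a library.

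Of 30 monocyte and macrophage markers, 18 were detected, 60%, near the 59.8% of protein-coding genes. Their levels were mixed. The lysosomal and Fc receptor side was on: CD68 had 100.2 ± 4.28 CPM, CTSS, the cathepsin S of antigen processing, 127 ± 4.72 CPM, FCGR2A 49.6 ± 3.13 CPM and FCGR1A, which has near-identical relatives, 51.5 ± 7.91 CPM. CD4, present on monocytes in humans, had 118 ± 4.96 CPM. LYZ, the lysozyme of monocytes and granulocytes, stood at 255, 144 and 136 CPM, with replicate 1 well above the other libraries. The markers that define circulating monocytes were off or nearly so. CD14, the lipopolysaccharide co-receptor, stood at 0.0745, 0.0915 and 0.0598 CPM, FCN1 had 0.00497 CPM and VCAN 0.025 CPM, and S100A12 had no count. S100A8 and S100A9, the calprotectin pair that monocytes make in bulk, had 4.58 ± 0.829 CPM and 6.59 ± 0.591 CPM. ITGAM, the CD11b chain, had 17.6 ± 2.14 CPM, CSF1R, the receptor for macrophage colony-stimulating factor, 4.62 ± 0.543 CPM, and the tissue macrophage receptors CD163 and MRC1 had 0.0805 CPM and 0.0703 CPM.

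CTSG and S100A12 are shown because both promoters are poor in CpG while CTSG was abundant and S100A12 had no count; they hold 3 and 1 CpG in 300 bases. The windows are chr14:24576201-24576500 and chr1:153375572-153375871, both on the minus strand of GRCh38.p14 in RefSeq, with CpG in capitals.
CTSG: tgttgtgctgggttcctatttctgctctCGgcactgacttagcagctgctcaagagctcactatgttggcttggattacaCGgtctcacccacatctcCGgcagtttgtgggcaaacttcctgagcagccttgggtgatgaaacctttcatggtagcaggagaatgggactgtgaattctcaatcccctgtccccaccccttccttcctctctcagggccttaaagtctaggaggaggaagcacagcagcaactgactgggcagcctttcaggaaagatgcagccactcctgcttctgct
S100A12: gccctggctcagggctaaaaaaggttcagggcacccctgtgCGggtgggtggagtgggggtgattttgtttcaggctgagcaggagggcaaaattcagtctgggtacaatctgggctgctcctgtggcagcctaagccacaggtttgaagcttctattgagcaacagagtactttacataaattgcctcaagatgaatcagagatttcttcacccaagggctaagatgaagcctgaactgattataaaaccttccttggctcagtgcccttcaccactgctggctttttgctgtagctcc

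Across all 15168 protein-coding genes with a promoter in the RefSeq table, 80.0% of those measured, the number of CpG in the window differed with the level of the gene. Genes with no count had a median of 5 CpG, genes with counts but below detection 11, and detected genes had 24, 27 and 26 in the classes of 1 to 10, 10 to 100 and 100 or more CPM. A window with 15 CpG or more was found for 29.6% of the genes with no count and for 85.9% of those from 10 to 100 CPM. The detected monocyte markers did not follow this order: their 14 windows had a median of 2.50 CpG. The 7 detected granule genes with a window had a median of 5, against 31 for the 21 fusion targets and cofactors. The window used for IRF8 was also CpG-poor, with 3. A single window was kept for each gene, and windows at other starts of a gene were not examined. The letters TATAAA in the 50 bases before the start, on the strand of the gene, were found for 3.89% of all windows. The share was 10.6% for genes with no count, 5.86% for those with counts but below detection, and 2.42%, 1.45% and 3.66% in the classes of 1 to 10, 10 to 100 and 100 or more CPM. The windows describe sequence, not methylation or binding, and genes without a matched promoter were left out.

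**Figure D3:**
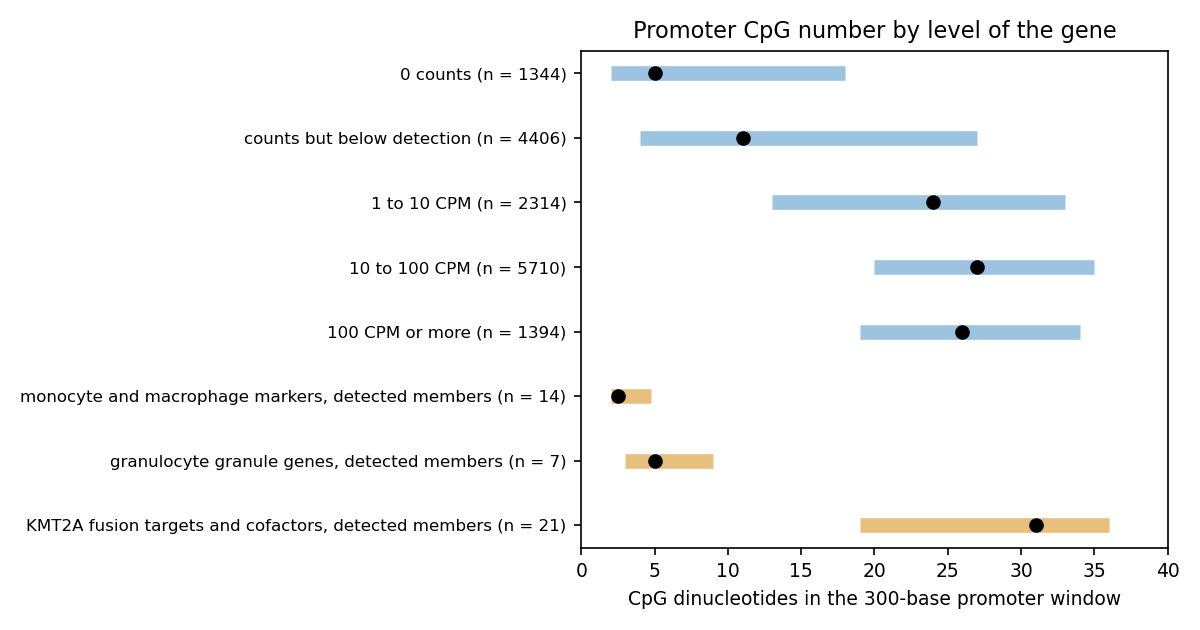
Number of CpG dinucleotides (x axis) in the window from 250 bases before to 50 after the start, for 5 classes of level (blue) and the detected members of 3 lists (tan). Black dots are medians and bars run from the lower to the upper quartile; the classes of detected genes have medians of 24 to 27, and the monocyte and granule lists lie at 2.50 and 5.

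Genes of other lineages were scarce. Over 10 lists that cover dendritic, erythroid, platelet, mast cell, B cell, T and NK cell, epithelial, stromal, neural, muscle, liver and germline genes, 20 of 138 members were detected, 14.5%, with a median of 0.0379 TPM. Among 20 erythroid genes HBB, HBA2, HBZ, AHSP and GYPB had no count, and EPOR (7.41 ± 1.09 CPM) and TFR2 (4.21 ± 0.675 CPM) were the 2 detected. PF4 and PPBP, the platelet chemokines, had no count, nor did CPA3 of mast cells, CD2 of T cells, or EPCAM and KRT19 of epithelia. Exceptions were few and some were well above the threshold. NCAM1, the adhesion molecule CD56 that marks NK cells and part of acute myeloid leukemias, stood at 41.3, 45.2 and 48.2 CPM. NKG7, of cytotoxic granules, stood at 13.2, 12.4 and 14.4 CPM, although CD3D, CD3E, PRF1 and GNLY were under detection. BATF3, a factor of type 1 dendritic cells, had 9.26 ± 1.6 CPM without its partner markers XCR1 (no count) and CLEC9A (0.0501 CPM).

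Receptors for blood growth factors were mostly present, 24 of 27 detected. FLT3 was the highest of them in TPM and was followed by IL3RA (109 TPM), IFNGR1 (70.3 TPM) and CSF2RA (67.8 TPM). CSF2RB, the signalling chain that the receptors for interleukin 3 and GM-CSF share, was far lower at 7.88, 9.04 and 9.37 CPM, and the alpha chains IL3RA and CSF2RA had 28.99 ± 1.71 and 18.2 ± 2.26 times its TPM. CSF3R, the receptor for granulocyte colony-stimulating factor, stood at 50.4, 58.3 and 70.4 CPM, and CXCR4, the homing receptor for bone marrow, at 49.6, 51.6 and 51 CPM. IL6R had 133 ± 1.78 CPM and its signalling chain IL6ST 24 ± 0.558 CPM. KIT and CXCR3 (0.22 CPM) were among those not detected. IL3RA and CSF2RA lie in the region that the X and Y chromosomes share, where reads have 2 places in the genome.

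Of the ligands listed, 10 of 21 were detected, 47.6% against 59.8% of protein-coding genes. VEGFA, the endothelial growth factor, had 129.7, 150.4 and 136 CPM, and CCL5, a chemokine, had 77.8, 81.4 and 78.4 CPM. MIF, the macrophage migration inhibitory factor, had 49.4 ± 9.71 CPM, and CXCL8, which attracts neutrophils, was the least steady with 11.1, 3.49 and 4.35 CPM. The colony-stimulating factors were under detection, with 0.00497 CPM for CSF2, 0.055 CPM for CSF3 and 0.231 CPM for CSF1, and IL3 had no count. FLT3LG, the ligand of FLT3, was at the threshold with 1.13, 1.28 and 1.23 CPM. IL1B stayed below it at 0.864, 0.732 and 0.733 CPM, and IL6 and IL10 had 0.00497 CPM and 0.0251 CPM.

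Among 22 receptor tyrosine kinases 10 were detected, 45.5% against 59.8% of protein-coding genes. RET, the receptor of the GDNF family known from neural crest cells, was second to FLT3, at 231, 212 and 238 CPM; FLT3 had 3.89 ± 0.336 times its TPM. INSR, the insulin receptor, had 133 ± 12.5 CPM, FGFR1 62.6 ± 1.72 CPM and IGF1R 33.8 ± 6.15 CPM. AXL, of the TAM receptors, had 8.42 ± 1.33 CPM and its relative MERTK 0.11 CPM. EGFR, MET, ALK and PDGFRA were at 0.0151 CPM, 0.00508 CPM, 0.0152 CPM and 0.0303 CPM, and KDR and DDR1 had no count.

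Below the receptors, the pathways were broadly present. All 21 genes of the PI3K, AKT and mTOR list, 27 of 28 of the RAS and MAPK list and 19 of 20 of the JAK and STAT list were detected, with medians of 24.2, 17.6 and 22.03 TPM. SPRY2 and DUSP6, feedback inhibitors that ERK signalling induces, had 85.3 ± 4.99 CPM and 119 ± 14.2 CPM. SOCS2, induced by STAT5, had 195, 188 and 181 CPM, the highest of its list per base at 142 TPM. PIM1, PIM2 and PIM3, kinases downstream of STAT5, had 20.6 ± 2.85 CPM, 16.5 ± 1.59 CPM and 17.9 ± 2.87 CPM. PTPN11, the phosphatase SHP2, had 299, 289.6 and 270.4 CPM; a different transcript row of this gene gave 86.8 CPM. NRAS had 146 ± 14.3 CPM and HRAS 4.96 ± 0.355 CPM, and NRAS had 8.25 ± 1.39 times the TPM of HRAS.

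RRAS2 was the RAS-list gene under detection, at 0.536, 1.39 and 1.33 CPM, with replicate 1 alone below 1 CPM, and STAT4 was the 1 in the JAK and STAT list, at 0.728 CPM. INPP5D, the lipid phosphatase SHIP1 of blood cells, which opposes PI3K, had 191 ± 23.9 CPM. Of 14 Src, Tec and Syk kinases 10 were detected, among them those of myeloid and B cells. BTK had 164, 161 and 151 CPM, LYN 125, 109 and 105 CPM and SYK 101, 108 and 114 CPM. The lymphoid members LCK, ZAP70 and BLK had 0.025 CPM, 0.0501 CPM and 0.00497 CPM.

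Genes of cell division were detected throughout. MYC stood at 480.3, 514 and 492 CPM, rank 255 of 11316 in TPM, and its partner MAX at 23.9, 24.9 and 23.1 CPM. Of 13 genes in this network 11 were detected; MLXIPL, the glucose-sensing ChREBP, had 0.0102 CPM. All 24 proliferation genes were detected, with a median of 61.1 TPM. MKI67, the Ki-67 antigen, had 405, 338 and 395 CPM, TOP2A 458, 388 and 375 CPM and PCNA 155, 135 and 131 CPM. The G1 cyclins were used unevenly: CCND2 had 442, 467 and 438 CPM and CCND3 111, 108 and 109.8 CPM, against 4.65, 8.36 and 8.63 CPM for CCND1. CCND2 had 44.7 ± 16.1 times the TPM of CCND1, or 23.3 times with median transcript lengths. CDK4 and CDK6 were similar in TPM, with a ratio of 1.17 ± 0.0198 that falls to 0.827 with median lengths. CCNA1, the germline cyclin A, was under detection at 0.745, 0.884 and 0.703 CPM, whereas CCNA2 had 116 ± 19.6 CPM.

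The inhibitors of the cell cycle split into present and absent. CDKN2A and CDKN2B, the neighbouring INK4 genes that restrain CDK4 and CDK6, had no count in any of the 3 libraries, while MTAP, the enzyme gene that lies beside them, had 43.6, 43.5 and 44.8 CPM. CDKN2C, their relative, had 77.3, 67.5 and 76.7 CPM. RB1, the target of these kinases, had 182 ± 21.6 CPM. CDKN1A, the inhibitor p21, had 198, 210.3 and 199 CPM. MDM2, a ubiquitin ligase, had 459.9, 471 and 449 CPM, and its relative MDM4 232 ± 31 CPM.

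Of 26 apoptosis genes 25 were detected, all but BIRC3 (0.0704 CPM). Among the BCL2 family guardians, MCL1 led with 355, 358 and 374 CPM, BCL2 had 83.6, 92.8 and 104 CPM and BCL2L1 9.64, 11.4 and 10.5 CPM. MCL1 had 7.40 ± 0.627 times the TPM of BCL2 and 23.0 ± 1.85 times that of BCL2L1; another row of BCL2 gave 30.5 CPM. BCL2A1 was near the threshold at 1.97, 1.37 and 1.39 CPM. The killers BAX and BAK1 had 17.2 ± 1.85 CPM and 14.7 ± 1.02 CPM, and of the BH3-only proteins BCL2L11, the BIM protein, had 67.1 ± 3.89 CPM, PMAIP1, the NOXA protein, 31.4 ± 5.03 CPM and BBC3, the PUMA protein, 5.94 ± 1.22 CPM. CASP8 had 25.7 ± 0.565 CPM and CASP9 3.61 ± 0.384 CPM.

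All 37 chromatin, splicing and cohesin genes that are mutated or targeted in acute myeloid leukemia were detected, with a median of 38.5 TPM. NPM1, the nucleolar chaperone, led with 2789, 2508 and 2199 CPM. BMI1, of the PRC1 complex, whose reads overlap a readthrough transcript with COMMD3, had 547, 523 and 484 CPM; EZH2, the PRC2 methyltransferase, had 47.6 ± 1.89 CPM and its relative EZH1 24.2 ± 4.05 CPM. DNMT1 had 12.1 ± 1.29 times the TPM of DNMT3A, which had 11.3, 12 and 14.2 CPM; another row of DNMT3A gave 1.26 CPM. TET2 had 69 ± 0.985 CPM and TET1 3.72 ± 0.381 CPM, and WT1, a zinc finger factor high in leukemia, had 43.2 ± 0.126 CPM. The N6-methyladenosine genes were complete, 20 of 20 detected, with a median of 35.9 TPM. METTL3, the catalytic writer, had 62.6, 63.9 and 67.1 CPM, and METTL14, its partner, 34, 34 and 29.7 CPM, a TPM ratio of 6.60 ± 0.768. The fetal readers IGF2BP1, IGF2BP2 and IGF2BP3 had 74.2 ± 6.57 CPM, 88.1 ± 4.81 CPM and 79.1 ± 6.39 CPM. The erasers ALKBH5 and FTO had 43.7 ± 3.58 CPM and 38 ± 2.4 CPM, and YTHDF2 had 106 ± 7.06 CPM.

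Glucose metabolism rested on a few isoforms, and 20 of 26 glycolysis genes were detected. Of the hexokinases, HK2 had 47.7, 44 and 52.4 CPM, HK1, the form of most tissues, had 1.07, 1.33 and 1.75 CPM, and HK3 was under detection at 0.607 CPM. HK2 had 23.8 ± 5.06 times the TPM of HK1. PFKP and PFKL had 114 ± 6.82 CPM and 68.8 ± 11 CPM, and PFKM, the muscle form, 3.69 ± 0.54 CPM; in TPM they had 85.6 TPM, 49.3 TPM and 2.39 TPM. PKM had 528 ± 58.8 CPM and PKLR, of liver and red cells, 0.28 CPM. LDHB, the heart-type subunit, had 1003, 976 and 970 CPM, above LDHA at 698, 551 and 576 CPM, a TPM ratio of 2.44 ± 0.258. Of the glucose transporters SLC2A3 had 141, 141 and 148 CPM and SLC2A1 16, 16.2 and 19.5 CPM, a ratio of 7.85 ± 0.644, or 4.47 with median lengths. SLC16A1, which moves lactate, had 154 ± 10.1 CPM.

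**Figure D4:**
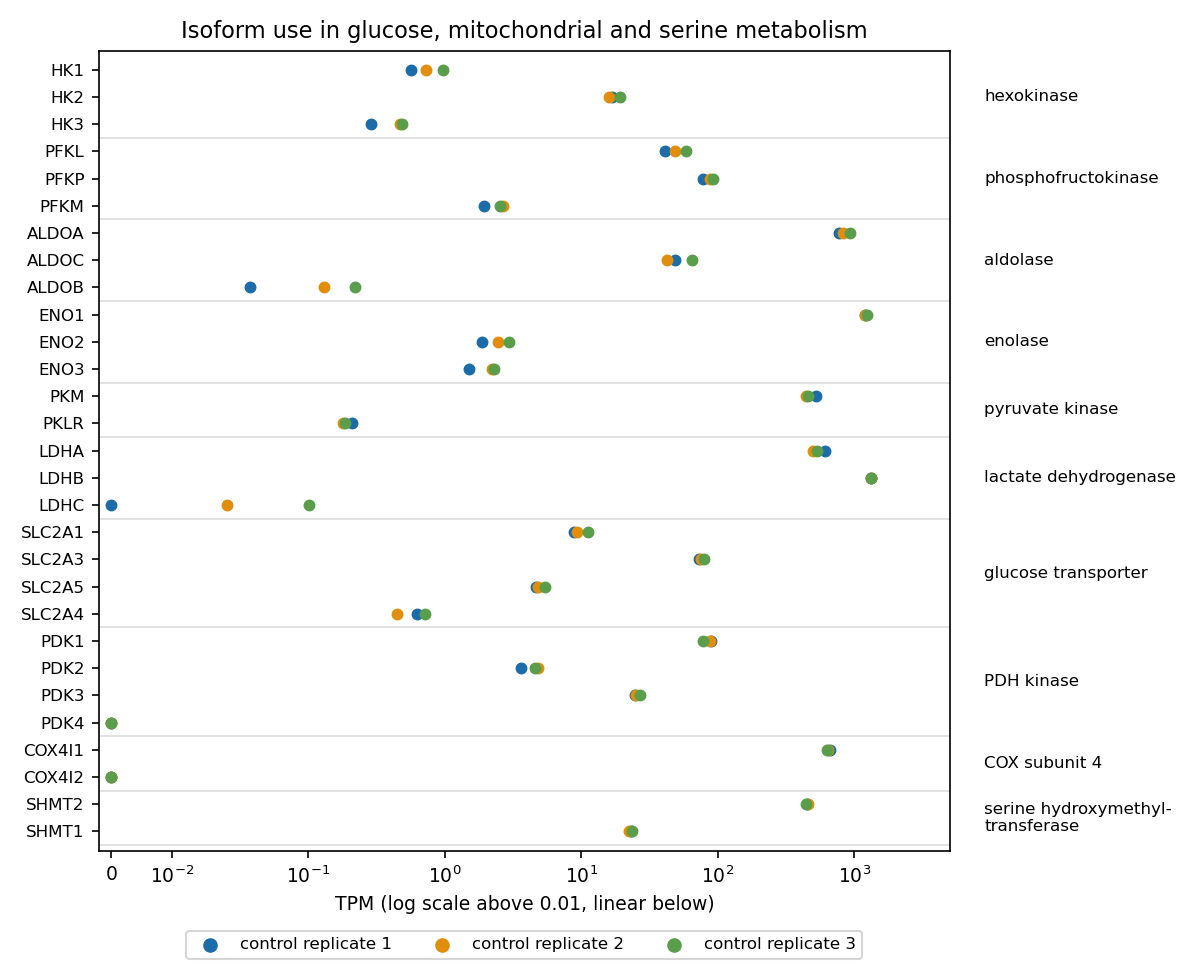
TPM (x axis, log scale above 0.01 and linear below) of alternative enzymes and transporters (rows, grouped by function at the right) in each of the 3 control libraries (colours). Within a function 1 or 2 forms carry most of the RNA, such as HK2, ENO1, PKM, COX4I1 and SHMT2, and PDK4 and COX4I2 lie at 0.

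The mitochondrial lists were nearly complete, with 29 of 30 genes of the citric acid cycle and its feeding steps and 29 of 33 nuclear genes of the respiratory chain detected, at medians of 53.9 and 120 TPM. PDK4, the pyruvate dehydrogenase kinase of fasting, had no count, and PDK1 had 61.9 ± 5.66 CPM. COX4I1 had 231, 218 and 211 CPM and its lung form COX4I2 no count; the muscle forms COX6A2 and COX7A1 had no count and 0.482 CPM. IDH2 had 95.6 ± 5.85 CPM and IDH1 109 ± 6.26 CPM, a TPM ratio of IDH2 over IDH1 of 1.45 ± 0.159. None of the 13 mitochondrially encoded messenger RNAs listed was found by symbol among the kept rows, so they were not analysed here. By symbol, 47 of 47 NDUF genes of complex I and 77 of 77 mitochondrial ribosomal protein genes were detected.

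In the list of serine, folate and glutamine enzymes, mitochondrial and cytosolic together, 20 of 20 genes were detected, with a median of 65.4 TPM. SHMT2, which splits serine in mitochondria, had 468, 466 and 441 CPM, against 28.1, 26.3 and 27.3 CPM for SHMT1, its cytosolic form, a TPM ratio of 19.6 ± 0.914. MTHFD2, the next mitochondrial step, had 505, 458 and 372 CPM. PHGDH and PSAT1, which make serine from a glycolytic intermediate, had 129 ± 5.51 CPM and 326 ± 44.7 CPM, and ASNS, asparagine synthetase, 154 ± 24.2 CPM. GLUL, glutamine synthetase, had 431 ± 9.1 CPM. In all, 13 of 14 amino acid transporters were detected, among them SLC38A2 (345 ± 52.5 CPM) and SLC38A1 (322 ± 16.3 CPM), with SLC7A11, the cystine importer, at 124 ± 25.2 CPM. All 26 nucleotide synthesis genes were detected; IMPDH2, of guanine nucleotide synthesis, had 604, 584 and 575 CPM and 22.2 ± 3.99 times the TPM of IMPDH1.

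The genes that handle cytarabine, the main drug of this leukemia, were unevenly present. DCK, which activates it, had 40.6, 32.6 and 30.4 CPM, SLC29A1, which imports it, 65.5, 70.2 and 66.8 CPM, and SAMHD1, which breaks down its active form, 65.4, 65.2 and 55.5 CPM. CDA, which inactivates it, had 0.104, 0.061 and 0.0598 CPM. The drug exporters ABCB1 and ABCG2 had 0.00508 CPM and 0.0152 CPM, both under the limit for a library, and ABCC1 and ABCC4 had 22.5 ± 3.54 CPM and 62.1 ± 2.36 CPM.

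Of 30 cholesterol and fatty acid genes 28 were detected. SCD, which puts the first double bond into fatty acids, had 795, 632 and 712 CPM, and FASN, fatty acid synthase, 82.4, 88.4 and 141 CPM, highest in replicate 3. ELOVL6, which lengthens palmitate, was under detection at 0.33 CPM. In iron and redox metabolism 22 of 26 were detected. TFRC, which imports iron, had 339.6, 283 and 297 CPM, FTL, ferritin light chain, 832, 792 and 861 CPM, and SLC40A1, the iron exporter ferroportin, 0.00499 CPM. FTL had 8.24 ± 0.0407 times the TPM of FTH1, or 5.12 times with median lengths. HMOX1, heme oxygenase, was under detection at 0.343, 0.229 and 0.269 CPM. The phagocyte oxidase was incomplete: CYBA had 45.1, 45.4 and 55.2 CPM and NCF4 24.7 ± 5.87 CPM, but CYBB, its catalytic chain, had 0.581, 0.259 and 0.254 CPM.

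Ribosomal proteins had the highest list median, 3287 TPM over 44 genes with 42 detected. RPL3L and RPL10L, forms of muscle and testis, had 0.0451 CPM and no count. Many of these genes have processed copies, and RPL13AP5, a pseudogene of RPL13A, was listed at 3404 CPM beside 3907 CPM for its parent, so their levels are uncertain. Among translation factors 20 of 21 were detected and EEF1A2, the neural and muscle form, had 1.09 ± 0.315 CPM. In the cytoskeleton list 23 of 26 were detected; ACTB had 2.39 ± 0.142 times the TPM of ACTG1, VIM, vimentin, had 269 ± 44.7 CPM, and LMNA, lamin A, had 12 TPM, against 120 TPM for LMNB1. All 23 chaperones were detected, among them HSPA8 (2122 ± 279.8 CPM) and HSP90AB1 (1974 ± 159 CPM).

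Stress and innate immune genes differed widely in level. All 13 genes of the ATF4 and stress list were detected, with a median of 32.4 TPM and ATF4 at 571, 574 and 469.8 CPM, XBP1 at 456 ± 46.4 CPM, DDIT4 at 232 ± 15.5 CPM and TRIB3 at 78.6 ± 15.7 CPM. All 19 immediate early genes were detected, with a median of 19.4 TPM; EGR1 had 70.2 ± 11.7 CPM, FOS 62.7 ± 9.94 CPM and JUN 5.7 ± 0.673 CPM. Interferon-stimulated genes were near the floor of detection, 19 of 26 detected at a list median of 2.51 TPM. MX1, ISG15 and IFIT1 had 0.76, 0.747 and 0.853 CPM, 0.924, 0.945 and 1.63 CPM and 1.5, 1.17 and 1.45 CPM, whereas IFITM2 had 35.5 ± 2.18 CPM. No interferon alpha, omega or kappa gene, of 15, was detected, and IFNB1 had 0.0452 CPM. Of the innate sensors, TMEM173, the STING protein, had 124, 128 and 153 CPM and NLRP3 122, 143 and 155 CPM; TLR2 had 19.7 ± 2.16 CPM, TLR4 2.27 ± 0.0746 CPM, and TLR3, TLR5, TLR7 and TLR8 were under detection.

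The class II antigen presentation genes differed in level. CIITA, their master regulator, had 1.28, 1.62 and 2.21 CPM and 0.222 TPM, and CD74, the invariant chain, 80.1, 95.9 and 96.2 CPM and 193 TPM. HLA-DRA and HLA-DRB1 had 4.16 ± 0.452 CPM and 2.9 ± 0.328 CPM, within the uncertain stretch of chromosome 6. CD80, CD40 and CD274, which act on T cells, were under detection at 0.191 CPM, 0.957 CPM and 0.396 CPM. B2M, the class I light chain, lies on another chromosome and had 783, 699 and 641 CPM.

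A pair of noncoding transcripts from which microRNAs are cut were on. MIR17HG, the host of the miR-17 to miR-92 cluster, had 108, 113 and 109 CPM, and MIR155HG, the host of miR-155, had 35.6, 34.6 and 36.6 CPM. These are levels of the host RNA; the mature microRNAs are too short for such libraries and were not measured. The mature sequences are shown because the host RNA is cut into several families, with the seed, bases 2 to 8, in capitals; miR-17-5p and miR-20a-5p share the seed AAAGUGC, and miR-19a-3p and miR-19b-3p share GUGCAAA. They are from RefSeq.
hsa-miR-17-5p: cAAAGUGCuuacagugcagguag
hsa-miR-20a-5p: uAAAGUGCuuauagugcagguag
hsa-miR-18a-5p: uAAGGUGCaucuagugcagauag
hsa-miR-19a-3p: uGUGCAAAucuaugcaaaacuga
hsa-miR-19b-3p: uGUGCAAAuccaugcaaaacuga
hsa-miR-92a-3p: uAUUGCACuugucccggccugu
hsa-miR-155-5p: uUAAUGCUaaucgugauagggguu

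Among the other noncoding RNAs, GAS5, a host of small nucleolar RNAs, had 1029.7, 1154 and 1046 CPM, and MALAT1, a nuclear RNA, 1523, 1618 and 2172 CPM. NEAT1, which builds paraspeckles, was less steady at 61.1, 64.2 and 102 CPM. H19 and MEG3, imprinted RNAs of the fetus, had 0.0903 CPM and 0.025 CPM. TERT, the telomerase protein, had 7.06, 10.8 and 15.2 CPM, with replicate 3 highest, and TERC, its RNA, 17.7, 15.9 and 19.2 CPM.

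Silent families marked the other end of the transcriptome. Of 357 olfactory receptor genes 3 were called detected, OR4F3, OR4F16 and OR4F29, which held the same value of 2.09 CPM each, so that their counts cannot be assigned to 1 gene. None of 93 keratin-associated protein genes, 36 beta-defensins, 28 late cornified envelope and SPRR genes or 15 kallikreins was detected, and 75 of the 93 keratin-associated genes had no count. Of 55 keratins, KRT10 (5.91 ± 0.996 CPM) and KRT8 (3.04 ± 0.721 CPM) were detected. Of 24 bitter taste receptors 7 were detected, from 2.33 CPM for TAS2R14 to 4.77 CPM for TAS2R30. Several of these lie within longer transcripts of neighbouring genes, and whether counting used strand is not given. Transporters of the SLC family were between these ends, 200 of 370 detected, and zinc finger genes named ZNF were mostly on, 377 of 506.

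The 3 libraries were close to each other. Over 8999 genes with a mean of 10 CPM or more, Pearson's r of log2 CPM across genes was 0.994 for replicates 1 and 2, 0.986 for 1 and 3 and 0.994 for 2 and 3, a description over genes that are not independent. Only 4 genes differed by more than 2-fold between replicates 1 and 2, 16 between 1 and 3, and 0 between 2 and 3. The median coefficient of variation, SD over mean, was 8.34% over the 12863 detected genes, and 12.9%, 7.31% and 6.26% in the classes of 1 to 10, 10 to 100 and 100 or more CPM. It was over 30% for 250 genes, or 1.94%. The common biological coefficient of variation, edgeR's estimate of spread beyond counting error, was 11.2%; without replicate 2 it was 15.1%, without replicate 1 it was 8.29% and without replicate 3 it was 9.32%.

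The remaining differences moved in part with the GC content of the transcript. Replicate 1 was the lowest library for 48.3% of the 12863 detected genes and the highest for 31.5%. Across 8681 genes with a known transcript, the log2 difference of replicate 1 minus 3 had a Pearson r of -0.588 with GC, and the differences 1 minus 2 and 2 minus 3 had -0.453 and -0.460. Of 5 equal bins of genes, in that with the highest GC, 56.8 to 72.8%, the median deviation from the mean of the 3 libraries was -0.144, 0.0025 and 0.142 log2 units for replicates 1, 2 and 3, and the median coefficient of variation was 11.0%. The bin with the lowest GC deviated the other way, by 0.0747, -0.00507 and -0.0680. Granule genes were split: ELANE, PRTN3, AZU1 and PRSS57, with transcript GC of 67.0%, 66.1%, 67.5% and 67.7%, were lowest in replicate 1, and SRGN and RNASE2, with 38.1% and 46.2%, were highest there. MPO and CTSG, with 58.5% and 57.2%, lie in the bin of highest GC and yet were highest in replicate 1. RNASE6, with 43.5%, was lowest in replicate 1 by a small margin, at 2.77, 2.96 and 2.89 CPM. The part of GC in the difference of any named gene was not tested.

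**Figure D5:**
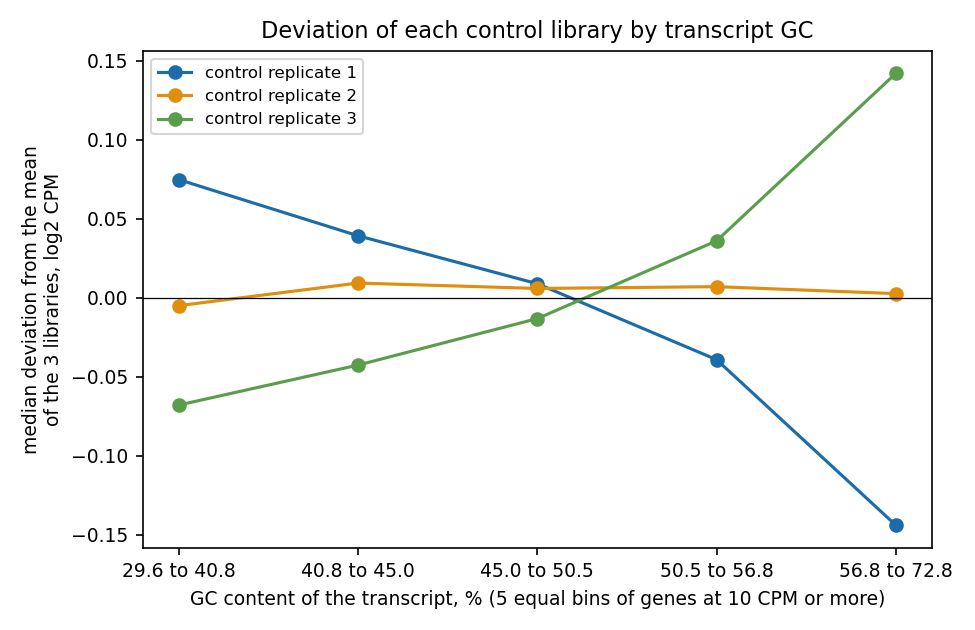
Median deviation of each control library (colours) from the mean of the 3, in log2 CPM (y axis), for 5 equal bins of the genes at 10 CPM or more by transcript GC (x axis, %). Replicate 1 runs from 0.0747 in the lowest bin to -0.144 in the highest, replicate 3 from -0.0680 to 0.142, and replicate 2 stays near 0.

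Of the 20 genes with the largest coefficient of variation at 10 CPM or more, 12 were highest in replicate 3 and lowest in replicate 1, and 8 were highest in replicate 1. The first set held RNA5-8S5 (104, 215 and 335 CPM), EVPL, an envelope protein of epithelia (7.26, 11.2 and 18.6 CPM), and TERT. It also held TNXB, a matrix protein from the uncertain stretch of chromosome 6 (23.1, 41.3 and 61.1 CPM). The second held the myeloid genes LYZ, MS4A3 (27.6, 14.4 and 16.3 CPM) and MNDA (17.2, 9.57 and 9.31 CPM) and the small nuclear and nucleolar RNAs SCARNA10 (471, 259 and 259 CPM) and SNORA53 (214, 105 and 122 CPM). LYZ, MS4A3 and MNDA have transcript GC of 41.5%, 40.8% and 37.7%, and TERT, EVPL and TNXB of 65.7%, 65.0% and 64.8%.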

How the data were processed

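Raw read counts per RefSeq transcript for 9 libraries were deposited by the authors as 1 table of whole numbers. Per the submitters' processing notes, STAR and DESeq were used on build hg19; the sources used here do not name versions, a counter or its settings for strand and for reads that match more than 1 place. Columns were assigned by their names, and 0 per-sample columns were unused. Of 48104 rows, 80 had symbols turned into dates; 78 were restored through their identifiers and 2 left out. For each symbol the row with the highest total over the 9 libraries was kept, and 9509 symbols had more than 1 row. CPM used library totals over the kept rows. TPM used GENCODE 29 transcript lengths, matched by accession for 93.8% of the rows and otherwise taken as the median for the symbol; it covers protein-coding genes, long noncoding RNAs and transcribed pseudogenes of 200 bases or more. Names, gene types and promoters came from RefSeq on GRCh38.p14, which matched 98.6% of the rows. The common biological coefficient of variation came from edgeR 4.0.16 in R 4.3.3 (filterByExpr, TMM, intercept only), and the script was tested on simulated counts of known spread; DESeq2 1.42.0 size factors were an alternative. There was 1 group and no contrast, so no test was run. Members, gene lists and alternatives were chosen with earlier results of these data known. Any list member could be named; outside the lists, the 20 highest genes by CPM, TPM and coefficient of variation and the 5 genes on each side of 1 CPM, with exceptions stated. Some listed genes are counted in their lists but are not reported here by name.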

Additional observations from a re-analysis of the deposited data

How the results depend on the processing

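No paired analysis was possible because the libraries form 1 group and no result comes from a test. The number of detected genes was 12883 to 13133 when each library was left out in turn, 13813 at 0.5 CPM and 11903 at 2 CPM, within 1.5 times of 12863 under each alternative run. Genes with no count numbered 3988 to 4529 without 1 library, and 7384 had at most 3 counts in each. Leaving out a library cannot lower the number detected or the number with no count, so the direction of these changes was fixed. The median coefficient of variation was 14.7% over all genes with any count, 5.86% to 9.50% without 1 library, and 6.88% once the median of each transcript GC bin was removed, a step chosen after seeing the data. The common biological coefficient of variation ran from 8.29% to 15.1% without 1 library and was 11.26% and 11.35% under DESeq2 size factors and no filter. The 10 highest genes held 11.7% of counts without the ribosomal RNA precursor rows and 14.96% to 15.95% without 1 library. Of 57 lists, 31 had a median above that of all detected genes, and 31 or 32 did under each alternative. Scaling and the totals without ribosomal RNA precursor rows do not change TPM, so those alternatives could hardly alter this count. The median transcript length moved the level of 30 lists, and the first row listed moved 23, beyond the SD of the 3 libraries. Of 1108 listed genes, TMM or DESeq2 scaling moved 0 beyond 1 SD, and totals without the ribosomal RNA precursor rows moved 242, none over 1.5-fold. TMM and DESeq2 factors raise some libraries and lower others, so the mean over libraries could hardly move. The first row listed per symbol moved 93 beyond 1 SD and 24 over 1.5-fold, among them PTPN11, BCL2, DNMT3A, CDK1 and IL1RAP. Length matters for order: with the median transcript length, 126 of 825 detected listed genes changed by over 1.5 times in TPM.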

Other observations

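Some genes outside the lists were high; they were chosen after their values were seen. XAGE1B, a cancer-testis antigen, had 1291, 1201 and 1088 CPM, and XAGE1E, a near-identical copy, held the same values, so that the copies cannot be told apart. KCNQ3, a potassium channel subunit of neurons, had 154, 173 and 181 CPM, and its relative KCNQ5 had 52.2, 55.5 and 59.6 CPM; 21 of 96 potassium channel and partner genes were detected. ASS1, which makes the precursor of arginine, had 975, 855 and 795 CPM. LYST, which shapes lysosomes and granules, had 1159, 1249 and 1417 CPM, and CHI3L1, a secreted chitinase-like protein, had 168, 135 and 155 CPM. PYGL, the liver-type glycogen phosphorylase, had 479.9, 487 and 496 CPM. PTPRC, the leukocyte antigen CD45, had 329, 321 and 328 CPM, and ITGA4, the integrin chain that binds VCAM1, had 270, 258 and 268 CPM.

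Histone genes of the HIST clusters, whose messenger RNAs mostly end without a poly(A) tail, were present: 55 of 70 were detected, and together they took 1.37%, 1.15% and 1.31% of the counts. HIST1H1B, a linker histone, had 999, 658 and 752 CPM. HIST2H2AA3 and HIST2H2AA4 are copies of 1 gene and held the same values, 494, 478 and 622 CPM. Whether these reads came from tailed or untailed transcripts was not measured.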
